A study of Mus musculus with 30 samples.

Results

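The 79 genes described here are nuclear genes for subunits of oxidative phosphorylation, taken from the 12428 genes of the deposited table. They were picked by a rule on symbols (Nduf subunit genes, the 4 Sdh genes, Uqcr genes, Cyc1, Cox4 to Cox8 and Atp5 genes, without assembly factors or pseudogenes). The rule uses no measured value, but the set was chosen with earlier results of these data known. They comprise 35 genes of complex I (7 of its core and 28 accessory), 4 of complex II, 9 of complex III, 14 of complex IV and 17 named for complex V. Ndufa4 was counted with complex IV, to which it has been reassigned, and the complex V genes include Atp5s and Atp5sl, which carry ATP synthase names but are not subunits of the enzyme.

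The RNA came from naive embryonic stem cells of mouse (C57BL/6J x 129) and was read as tags near transcript 3′ ends, in 30 libraries that form 10 groups of 3. The study concerns GRHL2, an epithelial transcription factor, in cells without KMT2C, or without it and KMT2D, which are histone methyltransferases of enhancers. Cells labelled Kmt2cKO; Kmtd fl/fl (called CKO here) and cells labelled Kmt2cKO; Kmt2dKO (the double knockout, dKO) received GRHL2-ERT by transposition, and clones with comparable GRHL2 expression were selected. The resulting CKOert and dKOert cells were given ethanol or tamoxifen for 8 h or 16 h, and CKO cells without the fusion were given tamoxifen for 8 h or 16 h. All groups lack Kmt2c, all were grown with serum, LIF and inhibitors of MEK and GSK3, and no group has wild-type Kmt2c. GRHL2-ERT joins GRHL2 to a receptor domain that tamoxifen moves into the nucleus. Each line with the fusion is a selected clone, so genotype and clone cannot be told apart. The labels number the replicates without saying that they were separate cultures, so each p measures only the spread between these libraries.

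Oxidative phosphorylation passes electrons from NADH through complex I, or from succinate through complex II, to ubiquinone, then through complex III and cytochrome c to complex IV, which reduces oxygen. Complexes I, III and IV pump protons across the inner mitochondrial membrane, and complex V, the ATP synthase, uses the gradient to make ATP. Apart from complex II, each complex also holds subunits encoded by mitochondrial DNA, so nuclear and mitochondrial products must be assembled together. Naive embryonic stem cells use both glycolysis and respiration.

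Values are given as CPM, counts scaled to a common library total, that is the share of a library's reads that fell on a gene (1 CPM is 1 read in 1 M, or mega, reads). Library depth ran from 8.86 to 22.1 M reads (median 16.2), and 3 reads stood for 0.136 to 0.339 CPM. All 10 naive stem cell markers fixed for the check were measured, with a summed level of 5240 to 12400 CPM, which was 5240 to 6400 in dKOert libraries and 8260 to 12400 in CKO and CKOert libraries. Of the other cell types, feeder fibroblast markers (3 of 7 measured) summed to at most 5.64 CPM, primitive endoderm markers (5 of 6) to 20 to 47.6 CPM in dKOert and 0.900 to 5.77 CPM in CKO and CKOert libraries, and trophoblast markers (3 of 6) to 58.9 to 115 CPM at 8 h and 19.6 to 62.8 CPM at 16 h. Grhl2 tags lay at 1.40 to 3.55 CPM without the fusion, at 64.6 to 210 CPM in CKOert and at 32.4 to 125 CPM in dKOert libraries. At 8 h CKOert and dKOert libraries did not overlap, with 158 to 210 against 32.4 to 52.2 CPM in ethanol and 159 to 189 against 51.2 to 125 CPM in tamoxifen. At 16 h the ranges were 69.2 to 90.2 against 47 to 61.5 CPM in ethanol and 64.6 to 86.6 against 47.9 to 70.3 CPM in tamoxifen. Tags of Kmt2c (9.47 to 32.8 CPM) and Kmt2d (5.77 to 23.4 CPM) were present in every line, and tags outside a deleted part check nothing. The part that such differences between libraries play in the results below was not tested.

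Several libraries stood apart. The dKOert tamoxifen library of replicate 2 at 8 h had the lowest depth (8.86 M reads), and 7.37% of its CPM fell on Rn45s, the ribosomal RNA precursor. That share was as high in a CKOert library: it was 5.39, 4.02 and 7.40% in the CKOert ethanol libraries of 8 h. In the dKOert libraries of 8 h the subunit genes did not follow the labels. Deviations from the common mean of these 6 libraries, over the 79 genes, correlated at r = 0.85 between the libraries labelled ethanol replicates 1 and 2, and at 0.87 and 0.91 between these and the library labelled tamoxifen replicate 3. The library labelled ethanol replicate 3 correlated at -0.29 and -0.22 with the other two of its group and at 0.61 with the library labelled tamoxifen replicate 1. Over 11403 genes these values were 0.52, 0.47 and 0.46, then -0.30 and -0.21, and 0.12. Over the 79 genes the library labelled tamoxifen replicate 2 correlated at -0.88 and -0.92 with ethanol replicates 1 and 2. With tamoxifen replicate 3 it correlated at -0.89. Each library enters the common mean, so these correlations are not independent. Cox7c held 1460, 1660 and 528 CPM in the libraries labelled ethanol and 424, 101 and 1390 CPM in those labelled tamoxifen. No library was moved between groups, and the counts and named values that such a library moves most are also given without it. At 16 h the dKOert tamoxifen library of replicate 2 also differed from its group for a few members, among them Sdhd.

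The subunit genes were among the more abundant transcripts: their median rank by mean level lay at the 97.5 percentile of the table. The highest mean over 30 libraries was that of Cox7c, a small structural subunit of complex IV, at 1860 CPM (101 to 3600 CPM over libraries), followed by Cox6c at 984 and Atp5g3 at 940 CPM. Atp5s had the lowest, at 4.74 CPM, followed by Ndufs5 at 5.25 and Atp5sl at 18.6 CPM. A CPM from 3′ tags counts transcripts and was not divided by length. The transcripts were short, with a median of 659 bases against 2098 bases for all genes of the table, and the last 300 bases, where the tags lie, had a median GC content of 48.7% against 44.7%. For 27 of the 79 genes, at least 50 of these bases matched another gene at 95% identity or more, so reads of those genes may have been split between copies. In 5 cases the other gene was in the table: BC002163 for Ndufs5, Gm12338 for Cox7c, Donson for Atp5o, Rpap1 for Atp5g1 and Igfbp4 for Cox5b.

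The clones with and without KMT2D were compared within each treatment and time, dKOert against CKOert. By CPM the median log2 difference of the subunit genes was 0.06 at 8 h and 0.02 at 16 h in ethanol, and -0.14 and -0.02 in tamoxifen, where all genes had medians of 0.31, 0.35, 0.18 and 0.35. Scaled so that the median of all genes is near 0, most called subunit genes were lower, as given below. By CPM 6 genes were lower and 6 higher in dKOert cells in all 4 comparisons, by limma with p adjusted over 12414 genes (Benjamini-Hochberg, threshold 0.05), which is the rule for every call below. The lower genes were Cox7a1, Cox7a2, Ndufa7, Ndufa11, Ndufb10 and Ndufv3. The higher genes included Atp5d, Atp5e, Ndufa13, Ndufb8 and Ndufs8. Over all genes tested, 4.62% were lower and 18.1% were higher in all 4 comparisons, against 7.59% of the subunit genes in each direction. When each comparison was fitted on its own 6 libraries, 4 of these 12 genes kept the call in all 4: Atp5d and Ndufa13 as higher and Cox7a1 and Ndufv3 as lower. In tamoxifen at 8 h 5 of the 12 then kept it, and with array weights 8 did.

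In ethanol at 8 h, 19 subunit genes were higher and 13 lower in dKOert cells, which is 40.5% of the 79 against 49.4% of all genes called. At 16 h in ethanol the counts were 10 and 10 (25.3% against 50%). In tamoxifen they were 15 higher and 19 lower at 8 h (43.0% against 44.5%), and 17 and 14 at 16 h (39.2% against 51.3%). By CPM the share called was therefore near or below that of all genes. Of all genes, 37.6, 40, 30.6 and 41.2% were called higher and 11.9, 9.96, 14 and 10.1% lower in these comparisons, in the same order. The median of all genes was shifted to 0.31, 0.35, 0.18 and 0.35 on the log2 scale, and median-of-ratios scaling, which sets that median near 0, changed the split to 2 higher and 33 lower, 0 and 38, 4 and 34, and 1 and 43. With it 20.9, 20.7, 19.6 and 21.6% of all genes were higher and 21.3, 20.8, 21 and 21.5% lower. Under that scaling the medians of the subunit genes were -0.25, -0.35, -0.35 and -0.40, and 21 of them were lower and 0 higher in all 4 comparisons (9.22% and 8.41% of all genes). Cox7a1, Ndufa11, Ndufb10 and Ndufv3 were lower in all 4 comparisons by CPM, by that scaling and after centring on GC content, where 18.5% of all genes were higher and 4.74% lower in all 4.

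Cox7a1, the heart and muscle isoform of complex IV subunit VIIa (chr7:30184144-30186078, mm10), showed the strongest of these differences. At 8 h in ethanol its level was 44.7, 43.7 and 48.2 CPM in CKOert and 14.4, 14.1 and 19.1 CPM in dKOert libraries. At 8 h in tamoxifen it was 55.2, 62.1 and 58.8 CPM against 17.4, 15.2 and 18.2 CPM. At 16 h CKOert libraries ran from 40.7 to 54.4 CPM and dKOert libraries from 17.2 to 22.1 CPM. Every dKOert library thus lay below every CKOert library, and CKO libraries without the fusion (33.8 to 60.5 CPM) lay with the CKOert ones. Cox7a1 was 2.78-fold and 2.30-fold lower in ethanol at 8 h and 16 h (log2 -1.47 and -1.20, SE 0.14, limma adjusted p = 1.6e-09 and 5.6e-08). In tamoxifen it was 3.33-fold and 2.44-fold lower (limma adjusted p = 7.0e-11 and 1.5e-08). These calls held under every alternative tried. The gene is known as a muscle isoform, but of 5 muscle markers 1 was measured, Acta1, which ran the other way, at 15.1 to 32.2 CPM in dKOert and 0 to 15.6 CPM in the other libraries.

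Its paralogs moved less. Cox7a2, the broadly expressed isoform, was lower by log2 -0.50, -0.39, -0.28 and -0.39 (SE 0.09) in ethanol at 8 h and 16 h and tamoxifen at 8 h and 16 h, the order used for such series of 4 below. After GC centring its difference in tamoxifen at 8 h missed the threshold (limma adjusted p = 0.054). Cox7a2l, a factor of respiratory supercomplexes, had differences of -0.26, -0.24, -0.23 and -0.27 (SE 0.10), of which the first and last were called (limma adjusted p = 0.041, 0.055, 0.067 and 0.029).

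Ndufv3, an accessory subunit beside the NADH-binding flavoprotein (chr17:31520115-31531331), stood at 247, 244 and 236 CPM in CKOert and 136, 132 and 158 CPM in dKOert libraries in ethanol at 8 h. In tamoxifen at 16 h the values were 297, 272 and 251 against 137, 177 and 134 CPM. The groups did not overlap in any of the 4 comparisons, and CKO libraries without the fusion held 247 to 323 CPM. Its log2 differences were -0.77, -0.74, -0.93 and -0.88 (SE 0.12; limma adjusted p at most 9.3e-06).

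Ndufa11, in the membrane arm of complex I (chr17:56717767-56722141), had 297, 238 and 281 CPM in CKOert and 154, 146 and 180 CPM in dKOert libraries in ethanol at 8 h. In tamoxifen at 8 h the dKOert libraries held 173, 227 and 140 CPM, with replicate 2 near the CKOert values of 246, 241 and 259 CPM. The log2 differences were -0.76, -0.71, -0.49 and -0.65 (SE 0.12), and the call in tamoxifen at 8 h was lost when the 6 libraries were fitted alone. Ndufb10, also of the membrane arm (chr17:24722060-24724478), differed by -0.46, -0.32, -0.44 and -0.48 (SE 0.11). Its libraries held 68.7 to 82.4 CPM in CKOert and 48.0 to 67.6 CPM in dKOert cells over both times and treatments, ranges that did not overlap. The accessory subunit gene Ndufa7 differed by -0.30, -0.53, -0.54 and -0.50 (SE 0.12).

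**Figure D1:**
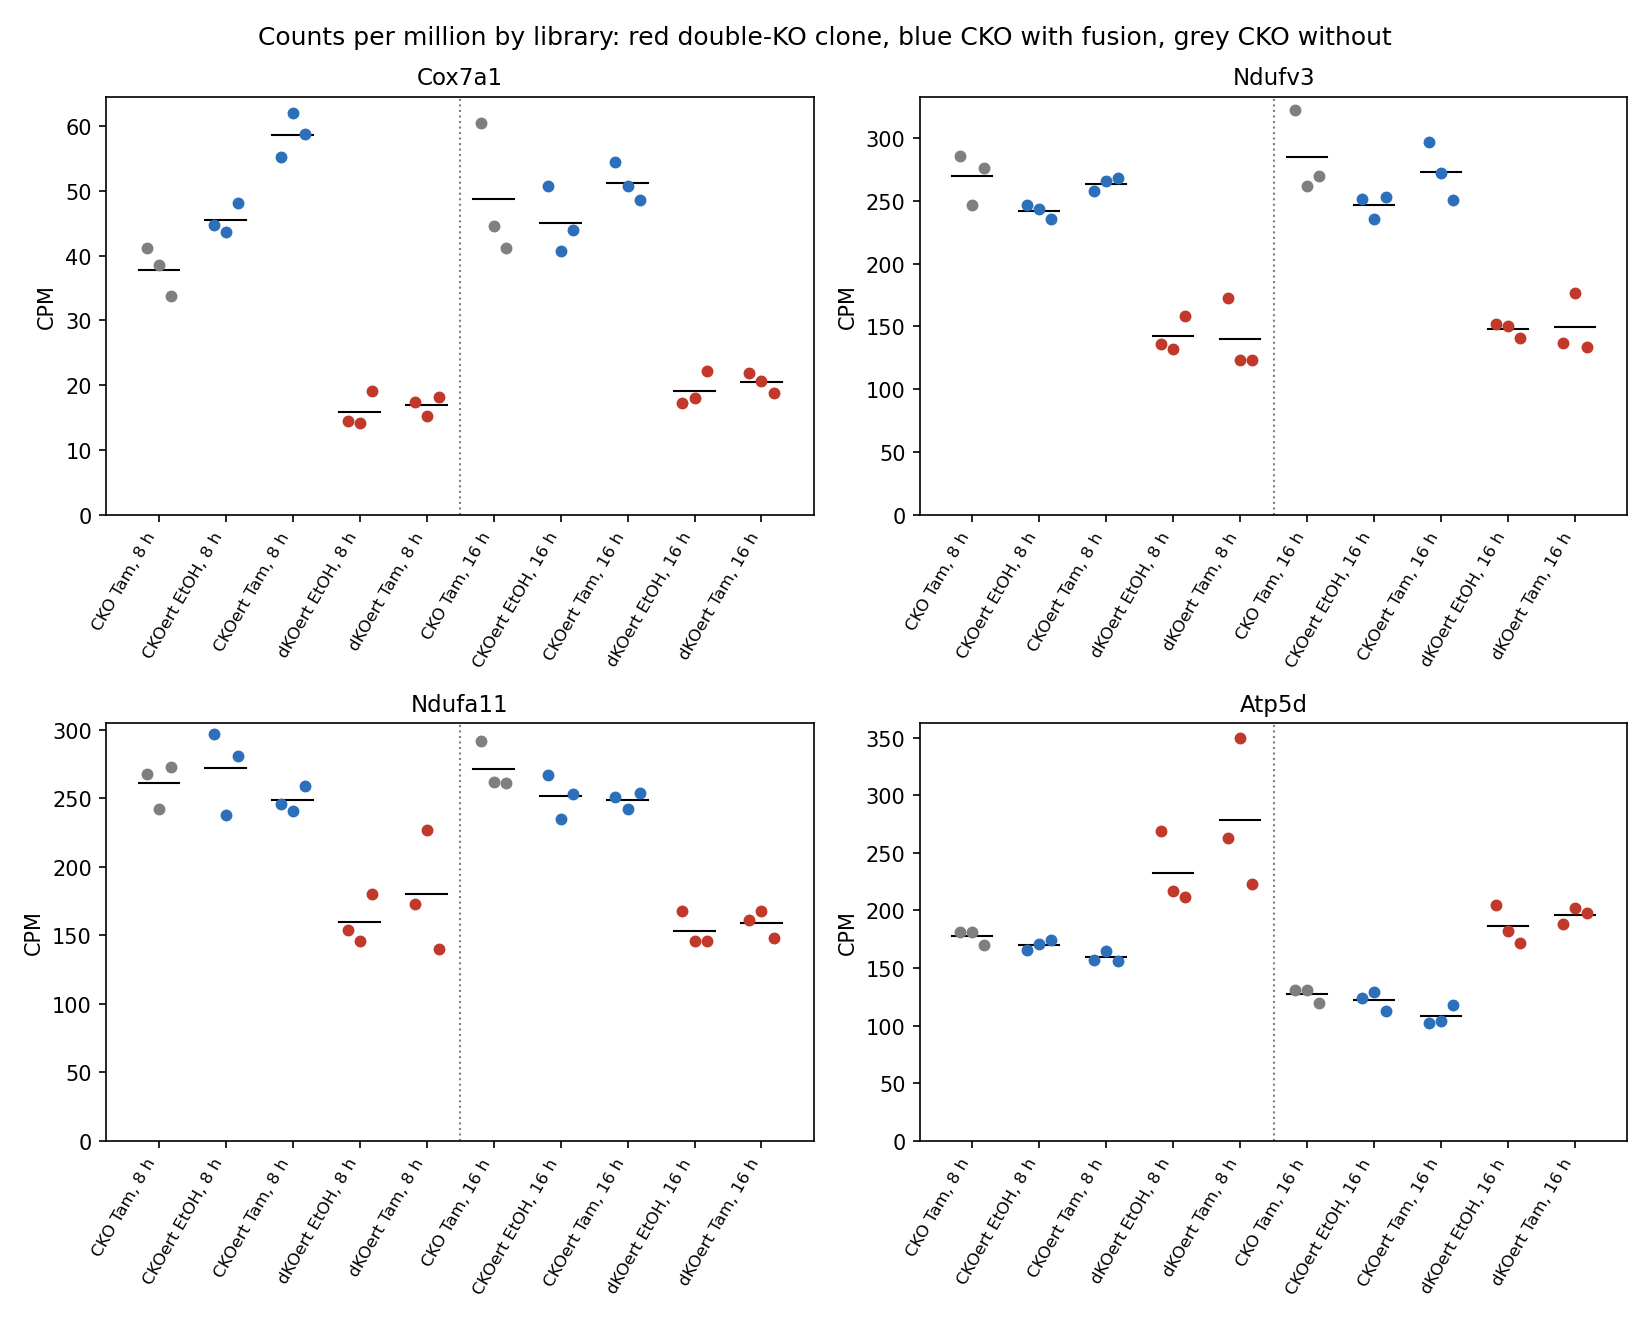
CPM of Cox7a1, Ndufv3, Ndufa11 and Atp5d in each of 30 libraries by group (line, treatment and time on the x axis), where points are libraries and bars are means of 3. The dKOert points (red) lie below the CKOert points (blue) for the first 3 genes and above them for Atp5d, and CKO libraries without the fusion (grey) lie near the CKOert ones.

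By CPM, most of the subunit genes lower in all 4 comparisons lay on 1 chromosome. Of the 6 subunit genes on chromosome 17, 4 (Ndufb10, Ndufv3, Ndufa7 and Ndufa11) were lower in all 4 comparisons, Ndufv2 was lower in 3 and Cox7a2l in 2, and none was higher in any. Elsewhere 2 of 73 subunit genes, Cox7a1 on chromosome 7 and Cox7a2 on chromosome 9, were lower in all 4 by CPM. With median-of-ratios scaling 21 subunit genes were lower in all 4. Most of these lay on other chromosomes, but all 6 subunit genes of chromosome 17 were among them. Chromosome 17 as a whole differed in the same direction by CPM. Of its 625 genes, 10.7% were lower and 3.04% higher in all 4 comparisons, against 4.32% and 19% of the 11709 genes on other chromosomes. The median log2 difference of chromosome 17 genes was -0.08, -0.01, -0.16 and 0.00 by CPM, where all genes had 0.31, 0.35, 0.18 and 0.35, and the medians of its 6 subunit genes were -0.38, -0.50, -0.51 and -0.54. With median-of-ratios scaling the chromosome's medians were -0.36, -0.30, -0.35 and -0.34. Chromosomes 9, 12 and 14 also lay below the others, at 0.08, 0.13 and -0.01 by CPM in ethanol at 16 h, and chromosome 8 lay above them, at 0.56. Neither copy number nor any other property of these chromosomes was tested. This grouping by chromosome was chosen after the data were seen.

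**Figure D2:**
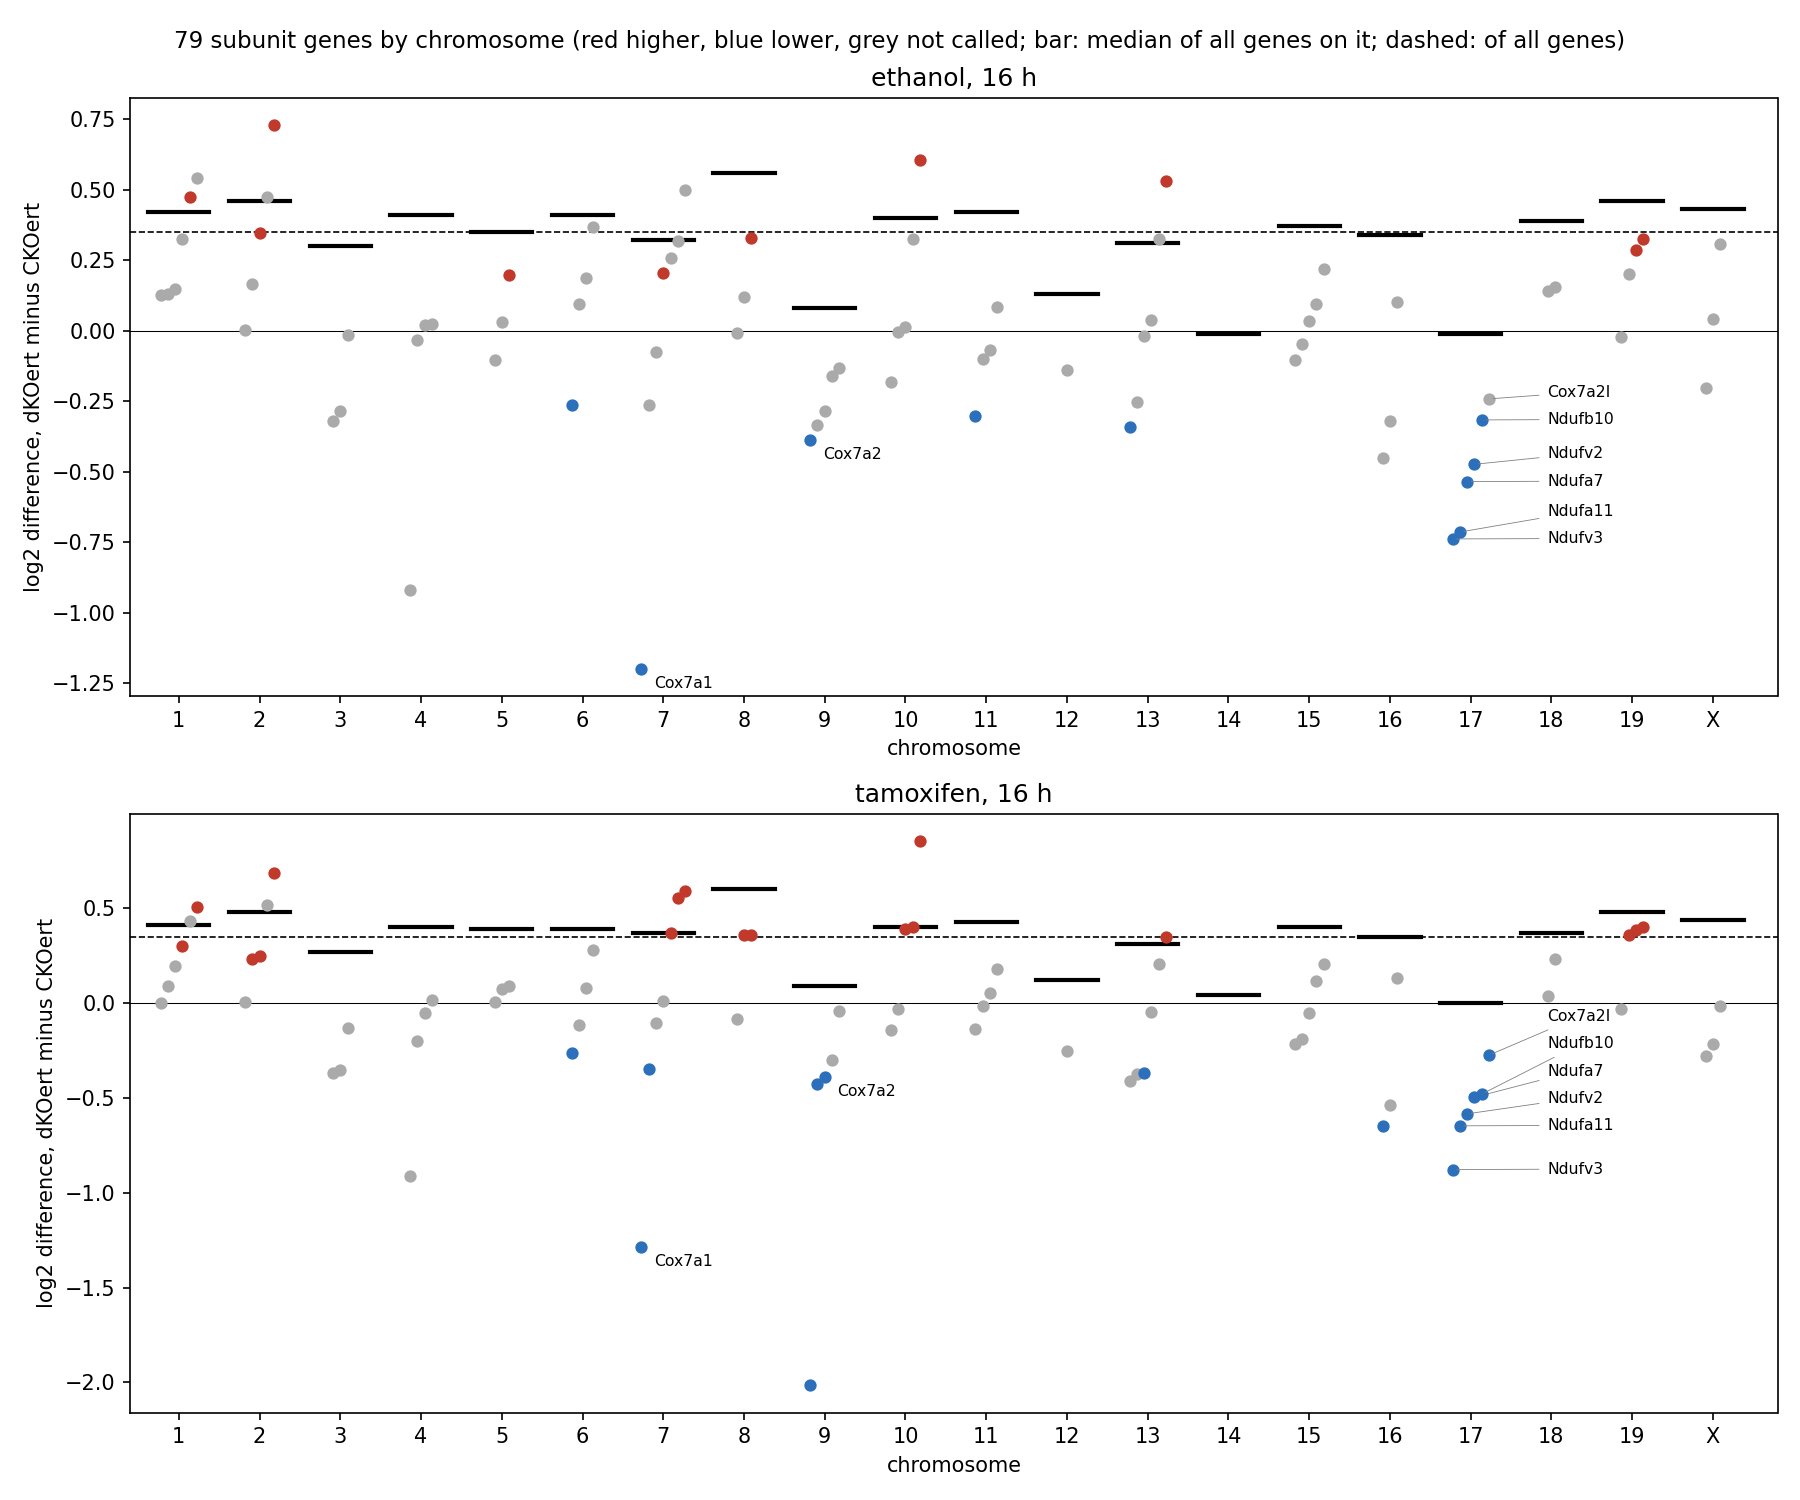
Log2 difference (dKOert minus CKOert, 16 h) of the 79 genes by chromosome, in ethanol and in tamoxifen, with 1 point per gene. Black bars mark the median of all tested genes on a chromosome and the dashed line that of all tested genes; the 6 genes on chromosome 17 all lie below the chromosome's own median (-0.01 and 0.00), which itself is below the median of all genes (0.35 in both).

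The promoters of the 4 genes that were lower under every scaling are shown to set their sequence beside this shared direction, each from 250 bases before to 50 after the RefSeq start (GRCm38.p6), in the gene's direction. Capitals mark matches to the motifs searched on both strands: those of NRF1 (GCGCANGCG), of ETS factors (CCGGAAG), of YY1 (AANATGGCG), of estrogen-related receptors, ERR (TCAAGGTCA), of GRHL factors (AACCNGTT), the E-box (CACGTG) and the box that precedes many starts (TATAAA). The windows are chr7:30183921-30184220 (+) for Cox7a1, chr17:31519865-31520164 (+) for Ndufv3, chr17:56717512-56717811 (+) for Ndufa11 and chr17:24724374-24724673 (-) for Ndufb10.
Cox7a1: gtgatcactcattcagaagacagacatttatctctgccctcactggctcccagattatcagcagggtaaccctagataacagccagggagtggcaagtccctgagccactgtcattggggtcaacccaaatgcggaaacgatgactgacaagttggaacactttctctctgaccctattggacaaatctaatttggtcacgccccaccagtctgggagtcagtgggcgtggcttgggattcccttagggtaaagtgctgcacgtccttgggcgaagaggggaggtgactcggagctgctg
Ndufv3: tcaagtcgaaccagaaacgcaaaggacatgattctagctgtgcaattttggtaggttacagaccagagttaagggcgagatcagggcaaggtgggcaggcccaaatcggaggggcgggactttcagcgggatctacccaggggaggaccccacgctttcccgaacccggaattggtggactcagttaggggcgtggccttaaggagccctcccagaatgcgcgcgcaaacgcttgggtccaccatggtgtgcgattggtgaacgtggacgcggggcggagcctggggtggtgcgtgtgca
Ndufa11: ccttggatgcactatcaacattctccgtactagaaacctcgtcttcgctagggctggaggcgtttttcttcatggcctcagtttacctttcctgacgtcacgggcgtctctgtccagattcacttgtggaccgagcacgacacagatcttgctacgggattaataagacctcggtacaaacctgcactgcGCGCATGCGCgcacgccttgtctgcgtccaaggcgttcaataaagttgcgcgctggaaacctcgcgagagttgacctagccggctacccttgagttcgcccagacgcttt
Ndufb10: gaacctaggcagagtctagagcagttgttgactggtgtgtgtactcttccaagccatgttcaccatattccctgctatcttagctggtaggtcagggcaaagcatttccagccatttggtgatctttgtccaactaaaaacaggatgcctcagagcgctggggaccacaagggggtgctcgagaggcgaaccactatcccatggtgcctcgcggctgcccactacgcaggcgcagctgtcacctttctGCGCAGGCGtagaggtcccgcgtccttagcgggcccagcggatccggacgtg
Matches to the NRF1 letters, which in Ndufa11 lie on both strands of the same bases, were found in Ndufa11 and Ndufb10, and 0 matches to any motif in Cox7a1 and Ndufv3. RefSeq promoters were matched for 67 of the 79 genes. The NRF1 letters, bound by a regulator of respiratory genes, were in 20 of them (29.9%) against 15.8% of promoters of the table's 9922 matched genes. The YY1 letters were in 11 (16.4% against 6.15%), the ETS letters in 16 (23.9% against 20.5%), the E-box in 7 (10.4% against 12.1%) and the last of the motifs in 5 (7.46% against 8.56%). The ERR letters were in 2 (Atp5g3 and Sdhd, 2.99% against 0.312%), and the GRHL letters in 0 (2.24% of all). A match is a run of letters and not a bound site.

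Atp5d, which encodes the delta subunit of the F1 central stalk (chr10:80138632-80145818), was higher in dKOert cells in all 4 comparisons by CPM. In ethanol at 16 h it had 124, 129 and 113 CPM in CKOert and 205, 182 and 172 CPM in dKOert libraries. In tamoxifen at 16 h the values were 102, 104 and 118 against 188, 202 and 198 CPM. The groups did not overlap in any comparison, and the log2 differences were 0.44, 0.60, 0.78 and 0.85 (SE 0.12; limma adjusted p = 0.0028, 9.8e-05, 4.4e-06 and 7.9e-07). With median-of-ratios scaling they were 0.12, 0.24, 0.57 and 0.47, and those in ethanol were not called (limma adjusted p = 0.46 and 0.15).

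The calls of Atp5e, Ndufs8, Ndufa13 and Ndufb8 as higher by CPM depended on the scaling. Atp5e, of the epsilon subunit in the same stalk, differed by 0.59, 0.35, 0.74 and 0.23 (SE 0.09), and by -0.02 and -0.16 at 16 h in ethanol and tamoxifen after median-of-ratios scaling. The core subunit gene Ndufs8 (0.37, 0.33, 0.32 and 0.40, SE 0.10) serves the quinone-reducing part of complex I, and under that scaling it was not called in any of the 4 comparisons and lay at -0.04 in ethanol at 16 h. The accessory subunit genes Ndufa13 (0.40, 0.33, 0.79 and 0.36, SE 0.13) and Ndufb8 (0.30, 0.29, 0.23 and 0.39, SE 0.09) lay at -0.04 and -0.08 in ethanol at 16 h and at -0.03 and -0.00 in tamoxifen at 16 h under the same scaling. At 16 h these differences lay between 0.23 and 0.40, near the median of all genes (0.35), while at 8 h Atp5e (0.59 and 0.74) and Ndufa13 (0.79 in tamoxifen) lay above it (0.31 and 0.18).

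By complex, the 7 core genes of complex I held 4 of the 10 higher calls of complex I in ethanol at 8 h and none of its 6 lower calls. In the other 3 comparisons the core genes had 2 higher and 1 lower, 4 and 1, and 5 and 1. Complex IV had more lower than higher calls in all 4 comparisons: 0 higher and 3 lower, 1 and 2, 2 and 6, and 2 and 4 of 14 genes, with medians of 0.04, -0.03, -0.33 and -0.25. Complex V had 5 higher and 2 lower, 3 and 0, 4 and 4, and 4 and 2 of 17. Complex I had 10 and 6, 5 and 7, 9 and 8, and 10 and 7 of 35. In complexes II and III, at most 2 genes were called in a direction. These counts are by CPM, where 37.6, 40, 30.6 and 41.2% of all genes were higher and 11.9, 9.96, 14 and 10.1% lower. With median-of-ratios scaling 2, 0, 4 and 1 of the 79 genes were higher and 33, 38, 34 and 43 lower.

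Complex II, which oxidises succinate, gave values that changed between comparisons. Sdha, its flavoprotein, differed by 0.35, 0.53, -0.08 and 0.35 and was not called in tamoxifen at 8 h. Sdhb, its iron-sulfur subunit, was lower by -0.49 in ethanol at 8 h (limma adjusted p = 0.0018) and lay at 0.02, 0.01 and -0.05 otherwise. Of the membrane anchors, Sdhc was higher in ethanol at 8 h (1.03 ± 0.39, limma adjusted p = 0.035), with 97.1, 93.5 and 42.7 CPM in the dKOert libraries, and its tamoxifen value at 8 h was -0.38 with 39.8, 14.9 and 84.7 CPM. Those are the libraries whose values crossed between labels. Sdhd was lower in tamoxifen at 16 h (-2.02 ± 0.79, limma adjusted p = 0.038), which rested on replicate 2 of dKOert (3.97 CPM against 77.5 and 57.3), and without that library the difference was -0.76 (limma adjusted p = 0.34).

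Among further catalytic and paralogous genes, Cyc1, cytochrome c1 of complex III, was not called (-0.03, 0.22, -0.14 and 0.21, SE 0.17). Uqcrfs1, the Rieske protein, was higher in ethanol at 8 h (1.01 ± 0.28, limma adjusted p = 0.0051) and lay at 0.33, -0.10 and 0.20 otherwise. The 3 genes that encode the same c subunit of the ATP synthase gave different values. Atp5g3 was higher in 3 comparisons (0.73, 0.73 and 0.69, SE 0.26) and lay at -0.28 in tamoxifen at 8 h, or at 0.27 without dKOert replicate 2. Atp5g2 was called lower in tamoxifen at 8 h (-0.57 ± 0.19, limma adjusted p = 0.015), a call that was lost without dKOert replicate 2 (-0.14, limma adjusted p = 0.17). Atp5g1 was not called (-0.12, -0.07, 0.23 and -0.02). Cox4i1, the common isoform of subunit IV, lay at 0.11, 0.12, 0.36 and 0.36, and Cox6a1 at -0.04, 0.20, -0.14 and 0.09. For subunit VIb, Cox6b1 lay at -0.02, -0.26, -0.49 and -0.35 and Cox6b2, known from testis, at 0.18, 0.50, 0.58 and 0.59 (SE 0.22). Cox8a (0.14, -0.02, -0.03 and -0.03) and Ndufa4 (0.80, 0.09, -0.72 and -0.12, SE 0.42) were not called.

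Single CKOert libraries moved the line counts by over 1.5 times: 21 genes were called in ethanol at 8 h without CKOert replicate 1 (32 with it), 13 in ethanol at 16 h without replicate 3 (20) and 16 in tamoxifen at 16 h without replicate 1 (31). Without any single dKOert library of doubt the counts at 8 h changed by less. In ethanol they were 17 higher and 11 lower without the library labelled ethanol replicate 3, and in tamoxifen 12 and 16 without replicate 2 and 18 and 29 without replicate 3. Single values moved more in tamoxifen at 8 h without replicate 2: Ndufa13 to 0.52, Ndufa7 to -0.28, Cox4i1 to 0.08, Cox6b1 to -0.20 and Cox6b2 to 0.20, of which the last 3 were then not called. In the same comparison Cox7a2 (-0.16) was not called without replicate 3, nor Ndufb8 (0.14 and 0.21) without replicate 1 or 3. In ethanol at 8 h Ndufa7 (-0.24) and Ndufb8 (0.23) were not called without replicate 3, while Sdhc (1.41) and Uqcrfs1 (1.27) were. With both dKOert tamoxifen libraries of replicate 2 set aside, the shared estimate of spread was smaller and the counts in ethanol at 16 h became 15 higher and 20 lower.

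The second comparison was 16 h against 8 h within each line and treatment. Here the whole set took a larger share of each library at 16 h. The 79 genes summed to 2.08 to 2.51% of CPM in the 15 libraries of 8 h (median 2.36) and to 2.70 to 3.05% in the 15 of 16 h (median 2.84), with no overlap. Complex IV went from between 0.469 and 0.717% to between 0.815 and 1.04%, of which Cox7c was a large part, since without it the ranges were 0.459 to 0.610% and 0.581 to 0.692%. Complex V ran from 0.680 to 0.833% at 8 h and 0.841 to 0.910% at 16 h, and complex I from 0.595 to 0.648% and 0.652 to 0.759%, again without overlap. Complex III (0.247 to 0.287% and 0.270 to 0.339%) and complex II (0.0416 to 0.0496% and 0.0409 to 0.0578%) overlapped between times. Without Cox7c the whole set held 2.07 to 2.41% at 8 h and 2.43 to 2.74% at 16 h. In bulk RNA, a change in the number of cells of a kind and in RNA per cell cannot be told apart. The labels name no batches, so harvest and library preparation cannot be told apart from time.

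**Figure D3:**
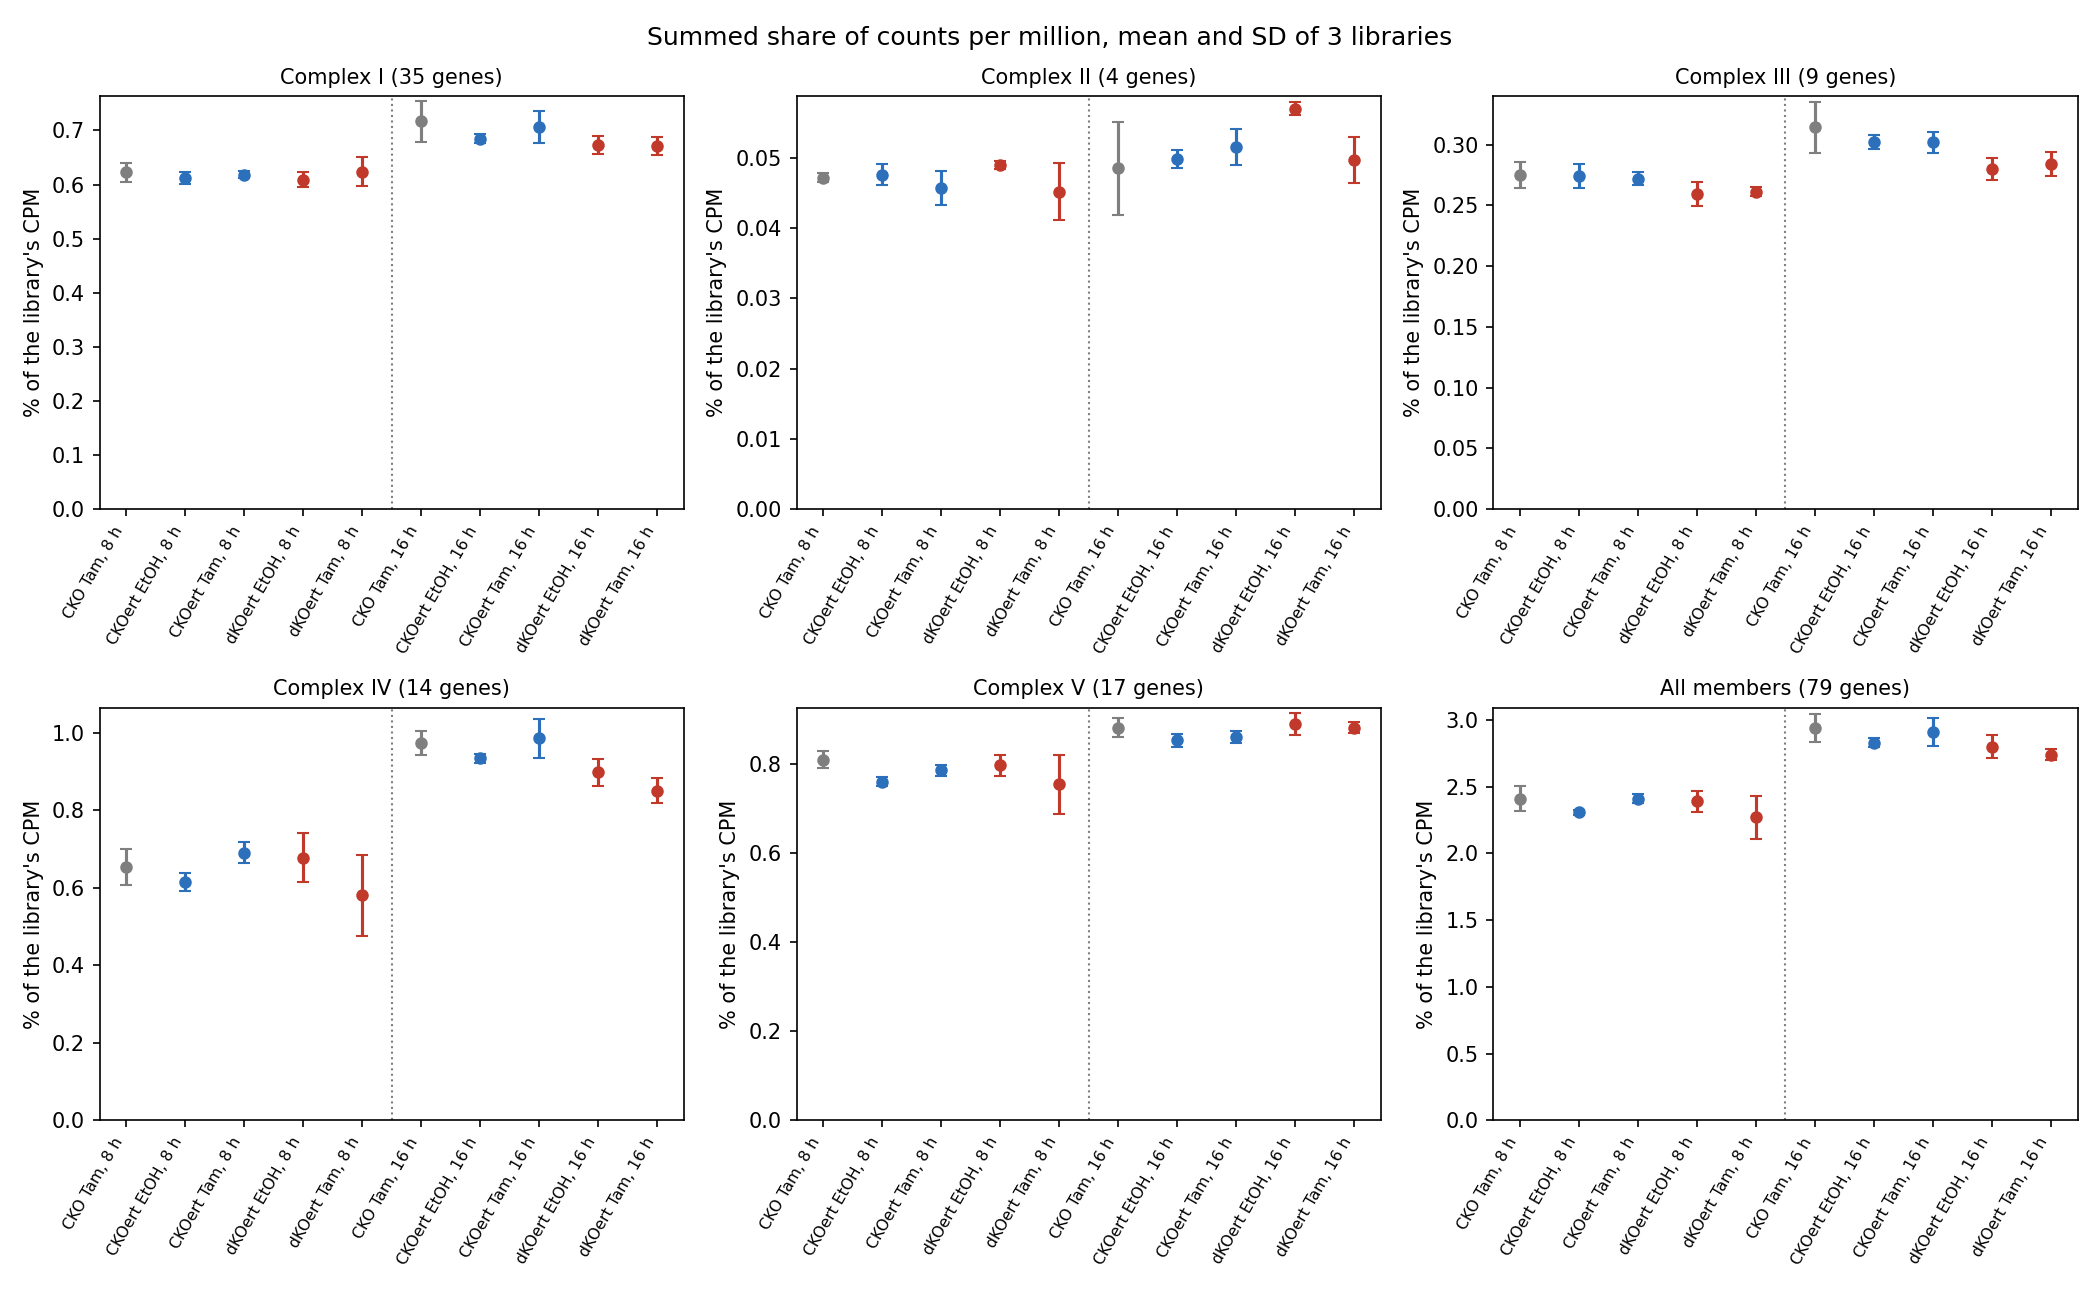
Summed share of each library's CPM (%, y axis from 0) for complexes I to V and for all 79 genes by group, as mean and SD of 3 libraries. The share of all 79 genes is at most 2.51% in every library of 8 h and at least 2.70% in every library of 16 h.

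Single genes moved in both directions. In CKOert cells in ethanol 26 subunit genes were higher and 13 lower at 16 h, which is 49.4% called against 45% of all genes. In dKOert cells in ethanol the counts were 8 and 6 (17.7% against 21.3%). In tamoxifen they were 22 and 9 in CKOert (39.2% against 38.3%), 33 and 9 in dKOert (53.2% against 35.7%), and 20 and 9 in CKO cells (36.7% against 36.6%). Of all genes, 17.5, 8.72, 11.9, 18.9 and 10.9% were called higher and 27.5, 12.5, 26.3, 16.9 and 25.7% lower, in the order CKOert and dKOert in ethanol, then CKOert, dKOert and CKO in tamoxifen, which is the order of the series of 5 below. The medians of the subunit genes were 0.07, 0.10, 0.05, 0.18 and 0.13 against -0.12, -0.06, -0.15, 0.02 and -0.15 for all genes. Median-of-ratios scaling changed the counts to 35 higher and 7 lower, 10 and 4, 29 and 6, 30 and 8, and 33 and 5, with medians of 0.18, 0.16, 0.21, 0.15 and 0.30. With it 23, 11.4, 18.7, 19.1 and 17.4% of all genes were higher and 21.7, 8.23, 18.6, 16.6 and 16.2% lower. The counts in dKOert cells depended on the libraries that stood apart. With both tamoxifen libraries of replicate 2 set aside they became 23 higher and 12 lower in ethanol and 18 and 9 in tamoxifen. Leaving out 1 library at a time gave 7 to 11 calls in dKOert in ethanol (14 with all), with 8 without replicate 1 of 8 h and 9, 8 and 7 without replicates 1, 2 and 3 of 16 h. In dKOert in tamoxifen it gave 27 calls without replicate 2 of 8 h and 60 without replicate 3 of 8 h (42 with all). In CKOert in tamoxifen it gave 20 without replicate 1 of 16 h and 19 without replicate 3 of 8 h (31 with all), and in CKO cells 19 without replicate 1 of 16 h (29 with all).

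Called in all 5 comparisons were 11 genes. Atp5j, Cox6c, Ndufb4, Ndufs5, Ndufv2 and Sdhd were higher at 16 h, and Atp5sl, Cox4i1, Ndufs7, Ndufv1 and Uqcrc1 were lower. Over all genes tested, 3.54% were higher and 5.65% lower in all 5. With median-of-ratios scaling 9 subunit genes were higher and 2 lower in all 5 (5.51% and 3.1% of all genes), with Ndufs7 and Uqcrc1 the lower ones. After GC centring 5 were higher and 1 lower (2.64% and 5.47% of all genes). Ndufb4, Ndufs5, Ndufv2 and Sdhd were higher in all 5 under CPM, median-of-ratios scaling and GC centring alike. When each comparison was fitted on its own 6 libraries, all 11 kept the call in 4 comparisons and none did in dKOert in tamoxifen. With array weights all 11 kept it in those 4, and Ndufb4 alone in dKOert in tamoxifen.

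Sdhd, a membrane anchor of complex II (chr9:50596357-50603812), had large differences between the times. In ethanol its level in CKOert libraries was 2.86, 2.57 and 3.41 CPM at 8 h and 124, 115 and 91.7 CPM at 16 h. In dKOert libraries in ethanol it was 9.5, 8.89 and 2.38 CPM at 8 h and 103, 99.2 and 91.0 CPM at 16 h. CKO libraries had 4.64, 3.15 and 4.09 CPM at 8 h and 26.7, 115 and 130 CPM at 16 h. In tamoxifen at 16 h dKOert replicate 2 stayed at 3.97 CPM, below the highest dKOert tamoxifen library of 8 h (10.3 CPM), while in the other 4 comparisons the times did not overlap. The log2 differences were 4.81, 3.81, 4.36, 2.53 and 3.93 (SE 0.79; limma adjusted p = 6.5e-05, 0.0022, 2.3e-04, 0.018 and 6.8e-04). The call in dKOert in tamoxifen was lost without replicate 1 or 2 of 8 h (2.30 and 2.16, limma adjusted p = 0.053 and 0.11). Its 3 partners in complex II gave other values: Sdha was lower in 4 comparisons (-0.59, -0.41, -0.56 and -0.57, with -0.13 in dKOert in tamoxifen, SE 0.12), Sdhb was called in 1 comparison, CKOert in ethanol (-0.35), and Sdhc in 1, dKOert in tamoxifen (1.23, and 0.60 with limma adjusted p = 0.23 without replicate 2 of 8 h).

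The promoter of Sdhd (chr9:50603800-50604099, - strand, RefSeq on GRCm38.p6, from 250 bases before to 50 after the start) is shown because it holds matches to 3 of the motifs named above and belongs to a gene with large time differences. In order, the capitals mark the NRF1 letters, the ETS letters read on the opposite strand and the ERR letters read on the opposite strand.
Sdhd: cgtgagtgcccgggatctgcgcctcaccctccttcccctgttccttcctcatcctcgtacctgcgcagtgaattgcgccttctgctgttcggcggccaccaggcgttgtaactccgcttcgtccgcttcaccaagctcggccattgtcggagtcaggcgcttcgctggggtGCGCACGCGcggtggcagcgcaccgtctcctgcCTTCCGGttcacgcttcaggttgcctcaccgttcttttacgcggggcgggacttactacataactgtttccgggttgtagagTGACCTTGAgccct
Of the other genes higher at 16 h in all 5 comparisons, Ndufb4 and Ndufs5 also held the NRF1 letters. Atp5j held the ETS and YY1 letters, Ndufv2 held no match, and no promoter was matched for Cox6c. Of the genes lower at 16 h in all 5, Uqcrc1 held the NRF1 letters too. Atp5sl, Ndufs7 and Ndufv1 did not, and no promoter was matched for Cox4i1. A link between these letters and the time differences was not tested.

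Cox7c, the most abundant member (chr13:86044816-86046904), had 286, 693 and 330 CPM at 8 h and 2980, 2920 and 2820 CPM at 16 h in CKOert libraries in ethanol. Over all 15 libraries of 8 h it ran from 101 to 1660 CPM and over the 15 of 16 h from 2000 to 3600 CPM. The times did not overlap, although the spread at 8 h was wide. The log2 differences were 2.85, 1.46, 2.03, 2.67 and 2.16 (SE 0.60), and that in dKOert in ethanol was not called (limma adjusted p = 0.09). The call in CKOert in tamoxifen was lost without its replicate 3 of 8 h (1.69, limma adjusted p = 0.065), and in dKOert in tamoxifen the difference was 1.70 without replicate 2 of 8 h. Of its tail, 181 bases matched Gm12338 without a difference, so its reads may be split.

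Ndufs5, an accessory subunit of complex I (chr4:123712710-123718202), was at 0 in 11 of 15 libraries of 8 h. In the other 4 it held 2.62 CPM in 1 CKOert ethanol library and 0.301, 0.273 and 0.373 CPM in the dKOert ethanol libraries. At 16 h it held 12.7, 13.3 and 11.7 CPM in CKOert ethanol libraries and 0.508 to 19.0 CPM over all 15. Set against 3 reads in each library (group mean of that floor), it was at least 64-fold higher at 16 h in CKOert, at least 33.7-fold in dKOert and at least 80.9-fold in CKO cells, all in tamoxifen. However, 274 bases of its tail match BC002163 at 99.27%. When the CPM of both genes were summed, the log2 differences were 0.60, 0.22, 0.48, 0.76 and 0.51 (SE 0.20; limma adjusted p = 0.014, 0.44, 0.054, 0.0052 and 0.042). The summed level of both thus differed far less between the times than Ndufs5 alone.

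**Figure D4:**
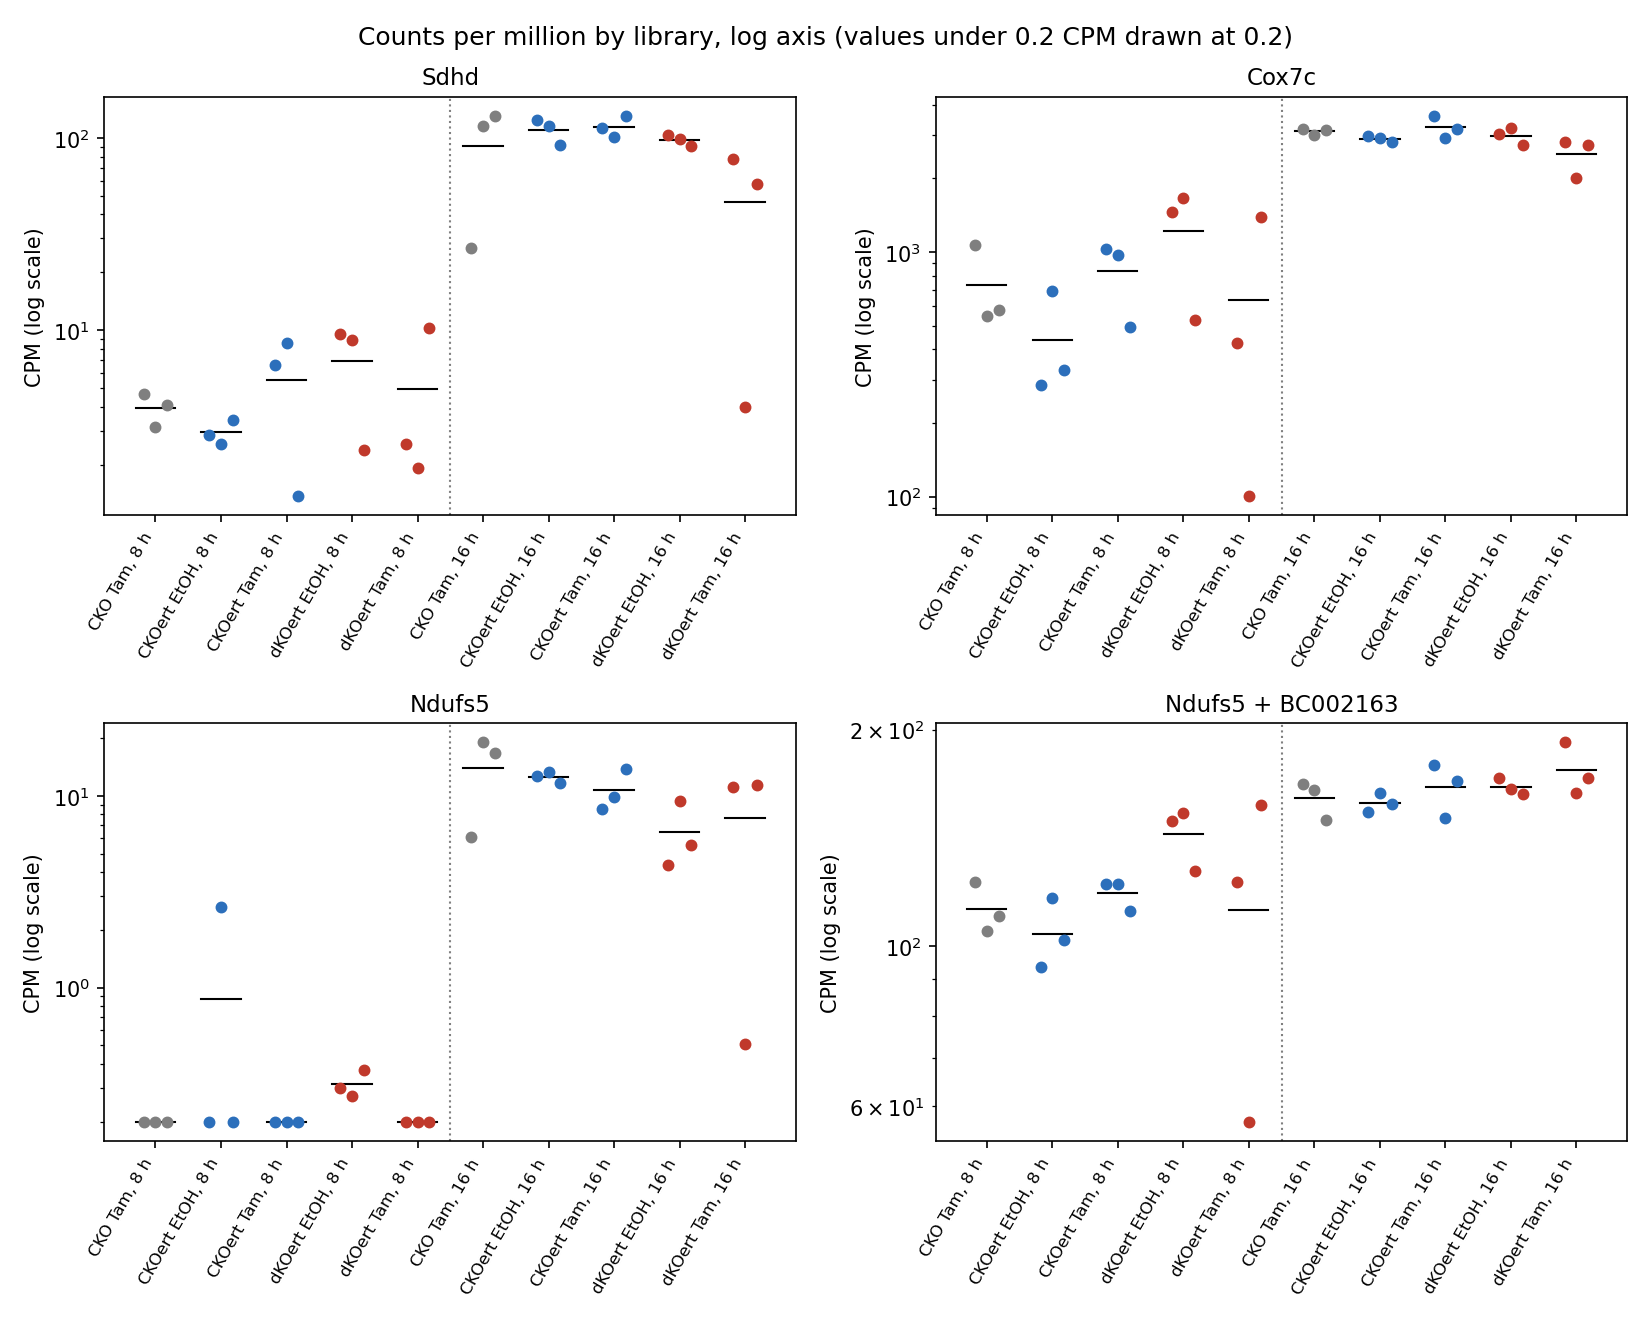
CPM (log axis) of Sdhd, Cox7c, Ndufs5 and the sum of Ndufs5 and BC002163 in each of 30 libraries by group, where points are libraries, bars are means of 3 and values under 0.2 CPM are drawn at 0.2. Cox7c lies at 101 to 1660 CPM in the libraries of 8 h and at 2000 to 3600 CPM in those of 16 h, and the large gap of Ndufs5 is reduced in the sum.

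Ndufb4, an accessory subunit of the membrane arm (chr16:37647170-37654453), ran from 38.4 to 202 CPM at 8 h and from 225 to 379 CPM at 16 h, without overlap. Its log2 differences were 1.02, 1.18, 0.89, 1.59 and 0.92 (SE 0.23). The core iron-sulfur subunit gene Ndufv2 (chr17:66078638-66101559) had 153, 160 and 186 CPM at 8 h and 304, 309 and 293 CPM at 16 h in CKOert in ethanol. Its differences were 0.86, 0.44, 0.69, 0.67 and 0.71 (SE 0.15), and the call in dKOert in ethanol was lost without any 1 of that comparison's 6 libraries. Atp5j, of the peripheral stalk of the ATP synthase, differed by 1.02, 0.73, 0.87, 1.20 and 0.84 (SE 0.25), and Cox6c, a small subunit of complex IV, by 0.28, 0.36, 0.39, 0.42 and 0.42 (SE 0.09). In 4 of 5 comparisons the small complex I subunit genes Ndufa1 (2.24, 1.21, 1.83, 1.99 and 1.74) and Ndufb3 (1.87, 1.06, 1.37, 2.15 and 1.31) were higher, and so was Uqcrfs1 (1.16, 0.48, 0.78, 1.08 and 0.92, SE 0.28). In each case dKOert in ethanol was the comparison that missed the threshold. In dKOert in tamoxifen the library of replicate 2 at 8 h weighed on many of these values: without it Atp5j lay at 0.68, Ndufv2 at 0.36, Ndufa1 at 1.13, Ndufb3 at 1.30 and Uqcrfs1 at 0.69, the last of them not called (limma adjusted p = 0.087). In dKOert in ethanol the call of Atp5j was lost without the library labelled replicate 3 of 8 h (0.55, limma adjusted p = 0.20).

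The genes lower at 16 h in all 5 comparisons included Ndufs7 and Ndufv1 of the complex I core, while Ndufv2 of the same core was among those higher. Ndufs7, a core iron-sulfur subunit of complex I, differed by -0.60, -0.65, -0.60, -0.50 and -0.53 (SE 0.11), and Ndufv1, the subunit that binds NADH and FMN, by -0.49, -0.40, -0.37, -0.56 and -0.61 (SE 0.14). Uqcrc1, a core protein of complex III, differed by -0.61, -0.47, -0.58, -0.43 and -0.58 (SE 0.12) and Cox4i1 by -0.41, -0.40, -0.62, -0.62 and -0.48 (SE 0.14). Atp5sl, now known for the assembly of the distal arm of complex I, differed by -0.92, -0.82, -0.69, -0.73 and -0.59 (SE 0.16). Without replicate 2 of 8 h, Ndufv1 lay at -0.31 and Cox4i1 at -0.34 in dKOert in tamoxifen, and without the library labelled replicate 3 of 8 h neither was called in dKOert in ethanol (-0.31 and -0.36). After centring on GC content, Atp5sl alone was still called lower in all 5. Ndufs7, for example, lay at -0.25 in CKOert in ethanol (limma adjusted p = 0.066) and Uqcrc1 at -0.27 (limma adjusted p = 0.079).

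The time differences followed the base composition of the 3′ ends. Over the 79 genes, Spearman's rho between the log2 difference and the GC content of the last 300 transcript bases was -0.63, -0.63, -0.63, -0.62 and -0.56. Over 12334 genes it was -0.36, -0.34, -0.34, -0.31 and -0.27. These points share libraries and are given as a description. Of the 26 subunit genes with the lowest GC (29.3 to 44.7%), 17 were higher and 1 lower at 16 h in CKOert in ethanol, and of the 26 with the highest GC (51.3 to 58.7%) 3 were higher and 9 lower. In dKOert in tamoxifen the counts were 22 and 1 against 4 and 7, and in CKO 12 and 0 against 3 and 8. Within single libraries, each gene's deviation from its mean over all 30 libraries was set against GC. Over the 79 genes this rho ran from 0.00 to 0.60 at 8 h (median 0.47) and from -0.57 to 0.00 at 16 h (median -0.52). Because that mean takes in both times, the signs at 8 h and 16 h are not independent. At 16 h the value of 0.00 was that of dKOert tamoxifen replicate 2. Rn45s took 3.10 to 7.40% of CPM at 8 h and 1.85 to 2.61% at 16 h, without overlap. The part that base composition plays in the time differences was not tested. Each library was also centred on a smooth curve of these deviations against GC, fitted over all genes. This centring gave 33 higher and 3 lower, 14 and 3, 23 and 5, 35 and 5, and 24 and 8 subunit genes. Of all genes, 15.7, 7.27, 10.5, 17.2 and 9.64% were then higher and 26.3, 12.1, 25.1, 16.1 and 26% lower. The centring left rho between the time difference and GC over the 79 genes at -0.33, -0.27, -0.31, -0.47 and -0.31.

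**Figure D5:**
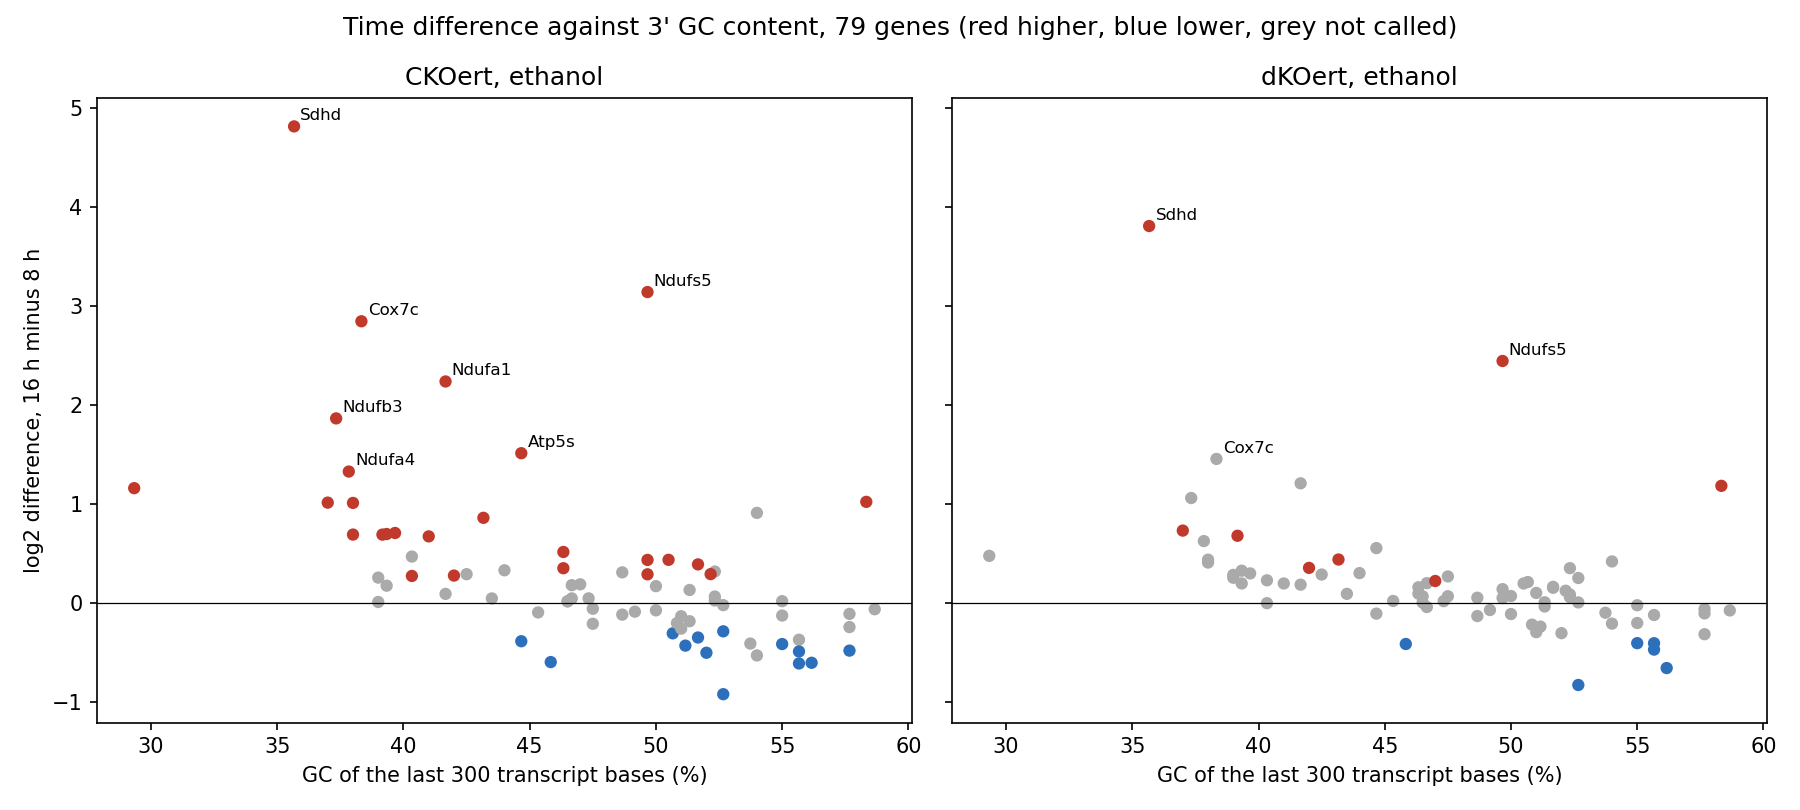
Log2 difference (16 h minus 8 h) of each of the 79 genes against the GC content (%) of its last 300 transcript bases, for CKOert and dKOert in ethanol; red points are called higher, blue lower and grey not called. The genes of lowest GC lie mostly above 0 and those of highest GC mostly below, with Spearman's rho of -0.63 in both panels.

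The counts were also split by copies of the tail. In CKOert in ethanol 8 of 27 genes with such a copy were higher and 2 lower at 16 h, against 18 and 11 of the 52 without. In the line comparison in ethanol at 8 h the counts were 5 and 3 of 27 against 14 and 10 of 52.

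By complex, more members were higher than lower at 16 h in complexes I, IV and V of CKOert cells in ethanol (11 and 5, 5 and 1, and 5 and 3). In dKOert cells in tamoxifen the counts were 12 and 5, 7 and 1, and 8 and 2. In dKOert in ethanol they were 5 and 2, 1 and 1, and 1 and 1. In tamoxifen they were 10 and 3, 3 and 1, and 5 and 3 in CKOert and 10 and 3, 4 and 2, and 2 and 2 in CKO. Of all genes, 17.5, 8.72, 11.9, 18.9 and 10.9% were called higher in the series of 5. Lower were 27.5, 12.5, 26.3, 16.9 and 25.7%. Complex III had 4 and 2 and complex II 1 and 2 in CKOert in ethanol. Among the paralogs, Cox6b1 was higher in 4 comparisons (0.44, 0.37, 0.51 and 0.40, with 0.20 in dKOert in ethanol, SE 0.14) and Cox6b2 was called lower in CKO cells (-0.58 ± 0.22, limma adjusted p = 0.039). Cox7a1, Cox7a2 and Cox7a2l were not called for time in any comparison, nor were Cox6a1, Cyc1 and Atp5g1. Atp5g2 (0.72) and Atp5g3 (1.00) were called higher in dKOert in tamoxifen, Cox8a (0.35) in CKO, and Ndufa4 (1.33 and 1.22) in CKOert in ethanol and dKOert in tamoxifen. Without replicate 2 of 8 h the values in dKOert in tamoxifen were 0.30 for Atp5g2 and 0.45 for Atp5g3, both still called, and 0.46 for Ndufa4 and 0.22 for Cox6b1, neither called.

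The treatment that brings GRHL2-ERT into the nucleus gave few calls, both among the subunit genes and among all genes. In dKOert cells at 8 h the count depended on single libraries, as given below. In CKOert cells 1 of 79, Ndufa3, was higher after 8 h of tamoxifen (1.27% against 4.95% of all genes called). Ndufa3, an accessory subunit of complex I, had 134, 121 and 127 CPM in ethanol and 153, 155 and 152 CPM in tamoxifen, without overlap, a log2 difference of 0.27 ± 0.08 (limma adjusted p = 0.049). The call was lost without any 1 of the 6 libraries and with median-of-ratios scaling (limma adjusted p = 0.17). At 16 h 0 of 79 were called by limma in CKOert cells (0.298% of all genes), with 0 at an unadjusted p under 0.05 and log2 differences from -0.23 to 0.19. The median difference was 0.03 at 8 h and 0.02 at 16 h.

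In dKOert cells 0 of 79 were called by limma at 8 h (0.0967% of all genes), with 36 at an unadjusted p under 0.05 and differences from -1.47 to 0.47. This rested on the libraries whose values crossed between labels: without the library labelled tamoxifen replicate 3, 18 subunit genes were higher and 26 lower, and without that labelled replicate 1, 0 were higher and 2 lower. The rank correlation with GC content over the 79 genes (Spearman) was 0.58 in this comparison and 0.21 over 12334 genes. At 16 h 0 were called by limma (0.0403% of all genes), with 3 at an unadjusted p under 0.05 and differences from -1.80 to 0.37. The difference of the tamoxifen response between lines, tested as an interaction, gave 0 calls at 8 h (1.43% of all genes, 33 at an unadjusted p under 0.05) and 0 at 16 h (0% of all genes, 1 at an unadjusted p under 0.05). Without the dKOert tamoxifen library of replicate 3, the interaction at 8 h gave 39 calls. It gave 4 without the dKOert ethanol library of replicate 3, 2 without the dKOert tamoxifen library of replicate 1 and 1 without the CKOert ethanol library of replicate 2.

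Cells with and without the fusion, both in tamoxifen, differed in 1 subunit gene at each time. Cox7a1 was higher with the fusion at 8 h (55.2, 62.1 and 58.8 CPM against 41.1, 38.6 and 33.8 CPM, log2 0.62 ± 0.14, limma adjusted p = 0.0062), where 4.07% of all genes were called. That call was lost without CKO replicate 3, and at 16 h the groups overlapped (48.6 to 54.4 against 41.2 to 60.5 CPM). Atp5o, the subunit that joins the peripheral stalk to F1 (chr16:91684398-91926982), was lower with the fusion at 16 h (518, 497 and 484 CPM against 717, 656 and 663 CPM, log2 -0.44 ± 0.09, limma adjusted p = 0.0097), where 0.975% of all genes were called. Its difference at 8 h was -0.19 (limma adjusted p = 0.33), and the call at 16 h was lost without CKO replicate 1 or without CKOert replicate 2 or 3. The annotated span of Atp5o takes in Donson, with which 287 bases of the tail of an annotated Atp5o transcript are identical. Reads may therefore be split between the pair.

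Atp5o was also the 1 subunit gene whose time difference in ethanol differed between the lines (4.84% of all genes). In CKOert cells it was 629, 605 and 604 CPM at 8 h and 507, 494 and 487 CPM at 16 h. In dKOert cells it was 444, 455 and 478 CPM at 8 h and 560, 522 and 516 CPM at 16 h. All CKOert libraries of 16 h thus lay below those of 8 h, and all dKOert libraries of 16 h lay above those of 8 h. The log2 difference was -0.30 in CKOert cells (limma adjusted p = 0.0082) and 0.21 in dKOert cells, where it was not called. Libraries of the times are not paired. The difference of the differences was 0.52 ± 0.13 on the log2 scale (limma adjusted p = 0.016). It missed the threshold with median-of-ratios scaling (0.46, limma adjusted p = 0.061) and after GC centring (0.44, limma adjusted p = 0.051), and without dKOert replicate 1 of 16 h (0.48, limma adjusted p = 0.052). In the line comparison Atp5o was lower in dKOert cells at 8 h (-0.42 in ethanol and -0.41 in tamoxifen, SE 0.09) and lay at 0.10 and 0.13 at 16 h.

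Related gene lists are given for comparison with the subunit genes. Assembly factors of the same complexes (48 of 49 measured) had 16 higher and 2 lower, 17 and 2, 19 and 8, and 19 and 1 genes in dKOert cells, with medians of 0.33, 0.21, 0.07 and 0.29, and 6 and 4, 6 and 8, 11 and 10, and 5 and 12 with median-of-ratios scaling. Tmem70, an assembly factor of the ATP synthase and complex I, was higher by 1.93 and 1.95 in ethanol and by 1.83 in tamoxifen at 16 h (SE 0.23; limma adjusted p at most 1.5e-07). The complex III assembly factor Uqcc2 was lower by -0.82, -0.76, -0.77 and -0.73 (SE 0.11), and its partner Uqcc1 was higher by 0.73, 0.68 and 0.68 in the first 3 comparisons. Values were kept only for the 4 called factors of smallest adjusted p in a comparison. Tmem70 in tamoxifen at 8 h and Uqcc1 in tamoxifen at 16 h were not among them, so nothing is said of them there. For time the assembly factors had 13 and 7, 4 and 1, 8 and 4, 12 and 7, and 7 and 5, and with median-of-ratios scaling 17 and 4, 7 and 0, 12 and 3, 14 and 7, and 13 and 2.

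The tricarboxylic acid cycle and pyruvate dehydrogenase genes (18), which supply electrons to the chain, had 5 higher and 2 lower, 6 and 3, 0 and 3, and 6 and 4 in dKOert cells, and 6 and 2, 2 and 1, 4 and 3, 10 and 2, and 4 and 4 at 16 h. With median-of-ratios scaling the line counts were 3 higher and 6 lower, 1 and 6, 0 and 5, and 0 and 7, and the time counts 9 and 2, 4 and 0, 5 and 2, 10 and 2, and 5 and 2. Pdha1, of pyruvate dehydrogenase, was lower in dKOert cells in all 4 comparisons (-0.58, -0.69, -0.41 and -0.75, SE 0.08). Mdh2, mitochondrial malate dehydrogenase, was lower at 16 h in all 5 (-0.86, -0.42, -0.76, -0.51 and -0.79). Genes for upkeep and transcription of mitochondrial DNA (11 of 12 measured) had 5 and 0, 2 and 1, 2 and 1, and 3 and 2 for line, and 6 and 2, 3 and 1, 5 and 2, 3 and 1, and 4 and 2 for time, and under that scaling 2 and 1, 1 and 3, 0 and 1, and 1 and 5 for line. Regulators of mitochondrial genes (10 of 11) had 6 and 3, 3 and 1, 3 and 1, and 3 and 0 for line, and 4 and 2, 2 and 2, 3 and 1, 1 and 0, and 2 and 3 for time, and under that scaling 3 and 3, 1 and 1, 2 and 3, and 2 and 3 for line.

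The mitochondrial ribosomal proteins (77), which translate the partner subunits encoded by mitochondrial DNA, had 16 higher and 10 lower, 15 and 10, 19 and 11, and 14 and 5 in dKOert cells, and 24 and 14, 5 and 6, 13 and 10, 25 and 12, and 11 and 11 at 16 h. With median-of-ratios scaling the line counts were 5 and 23, 4 and 33, 4 and 23, and 4 and 35, and the time counts 27 and 9, 8 and 2, 26 and 4, 23 and 11, and 21 and 3. Of the cytosolic ribosomal proteins (88), most of those called were lower in dKOert cells, with 4 higher and 42 lower, 1 and 45, 2 and 58, and 1 and 50. Their medians were -0.26, -0.33, -0.50 and -0.38. With median-of-ratios scaling the line counts were 1 and 63, 0 and 71, 1 and 68, and 0 and 73, with medians of -0.58, -0.70, -0.70 and -0.76. For time the cytosolic ribosomal proteins had 31 and 4, 9 and 3, 14 and 5, 38 and 12, and 23 and 5. With median-of-ratios scaling they had 44 and 3, 18 and 1, 30 and 3, 37 and 9, and 46 and 1. By CPM their medians in the line comparison were lower than those of the subunit genes (0.06, 0.02, -0.14 and -0.02), a difference between lists that was not tested.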

How the data were processed

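RNA was measured with a QuantSeq 3′ kit and single-end sequencing in 30 libraries, per the labels' protocols. Salmon, DESeq2 1.34.0 and mm10 are named in the submitters' processing notes with no role, and other settings are not given in the sources used here. The deposited values are log2 of CPM plus 0.124871, which the authors made from their counts, and the authors' deposited group means matched the library columns to within 4.7e-08. Depth was recovered from the steps between low values, of which 94.5 to 98.9% were whole within 0.05 reads. Floors of 3 reads cover counting error only. No pair of libraries was identical (0 pairs).

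Values were returned to CPM, and log2(CPM + 1) was fitted with limma 3.58.1 in R 4.3.3 over all 30 libraries with a mean per group, variance trend and robust moderation (20 residual degrees of freedom). A gene needed a mean of 1 CPM in a group, which 12414 had (14 removed), and was tested in 18 contrasts, with two-sided p adjusted by Benjamini-Hochberg over all genes tested and a threshold of 0.05. All 79 members were tested. The script was tested on simulated data. The limma test fitted the deposited unit, and no count model was used. Positions come from GENCODE M21. Members were named where called with groups that did not overlap, up to 12 per direction and contrast, with complex II, Cyc1, Uqcrfs1, the paralog sets and the extremes of level always named, and up to 4 genes per other list; 1 member that met the rule is not reported here by name. The members and the gene lists were chosen with earlier results of these data known.

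Alternatives were pseudocounts of 0.1 and 5, no filter, median-of-ratios scaling, the libraries of a contrast alone, a replicate block within each time, array weights and leaving out each library. Chosen after seeing the data were GC centring (lowess span 0.3, 12331 genes), setting aside 2 dKOert tamoxifen libraries (replicate 2 of each time), and the grouping by chromosome.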

Additional observations from a re-analysis of the deposited data

Results flagged for a closer look

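Atp5o was marked for a closer look because its time difference in ethanol differed between the lines by a test of the difference itself. The interaction was 0.52 on the log2 scale (SE 0.13, limma adjusted p = 0.016). Levels at 16 h were lower in CKOert cells, which was called, and higher in dKOert cells, which was not called. The value was 0.46 with median-of-ratios scaling and 0.44 after GC centring, both short of the threshold.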

How the results depend on the processing

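Of 229 called values of named genes, all kept their direction and call with a pseudocount of 5 and with no filter, and 227 with a pseudocount of 0.1. Of the same values, 165 kept both with median-of-ratios scaling (49 lost the call, 15 changed sign), 168 with the libraries of a contrast alone, 184 with array weights, 193 with GC centring and 213 with the 2 dKOert libraries set aside. Leaving out 1 library at a time kept 1093 of 1380. The cause of these changes was not tested. Depth limits single low genes such as Ndufs5, which was at 0 in 11 libraries.

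Signs that changed, all under median-of-ratios scaling, included in the line comparison Ndufb8 in ethanol at 8 h (-0.01), in ethanol at 16 h Atp5e (-0.02), Ndufa13 (-0.04), Ndufs8 (-0.04), Ndufb8 (-0.08), Ndufa3 (-0.16) and Cox6a1 (-0.17), and in tamoxifen at 16 h Atp5e (-0.16), Ndufb8 (-0.00), Ndufa3 (-0.02), Ndufa13 (-0.03), Ndufv1 (-0.03), Cox4i1 (-0.03) and Sdha (-0.04). That scaling gave 38 called subunit genes for the lines in ethanol at 16 h (20 as reported), 0 for tamoxifen in CKOert at 8 h (1) and 0 for the difference of time responses (1), for which GC centring also gave 0. With the libraries of a contrast alone the counts were 50 for the lines in ethanol at 16 h and 5 in tamoxifen at 8 h (34). They were 24, 52 and 0 for time in dKOert in ethanol (14), CKOert in tamoxifen (31) and dKOert in tamoxifen (42), 0 for tamoxifen in CKOert at 8 h, 2 and 2 for the fusion at 8 h and 16 h (1 each), and 3 for the difference of time responses. Array weights gave 47, 13 and 47 for the lines in ethanol at 16 h, tamoxifen at 8 h and tamoxifen at 16 h (31). They gave 47, 50, 1 and 47 for time in dKOert in ethanol, CKOert, dKOert and CKO in tamoxifen (29), 3 for tamoxifen in CKOert at 8 h, 2 for the fusion at 8 h and 20 for the difference of time responses. With the 2 dKOert libraries set aside the counts were 35 for the lines in ethanol at 16 h, 35 and 27 for time in dKOert in ethanol and tamoxifen, 5 for tamoxifen in CKOert at 8 h and 5 for the difference of time responses.

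Replicate numbers did not pair the libraries: over 15 comparisons, correlations of same-numbered deviations from the group means ran from -0.58 to 0.27, 0 comparisons had every pair above 0.1, and in 0 did every library correlate best with its own number. A replicate block gave 8, 16, 26 and 17 called genes for time in dKOert in ethanol, CKOert, dKOert and CKO in tamoxifen, and 0 for tamoxifen in CKOert at 8 h. It kept 176 of the 229 named values.

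Leaving out 1 library at a time gave 21 to 28 and 13 to 16 calls for the lines in ethanol at 8 h and 16 h, and 24 to 47 and 16 to 24 in tamoxifen. For time it gave 31 to 41, 7 to 11, 19 to 27, 27 to 60 and 19 to 26, in the order of the report. For tamoxifen it gave 0 to 0 in CKOert at 8 h, 0 to 44 in dKOert at 8 h and 0 to 0 in both at 16 h. The fusion had 0 to 1 at each time, the difference of tamoxifen responses 0 to 39 at 8 h and 0 to 0 at 16 h, and the difference of time responses 0 to 2.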
